A study of Mus musculus with 4 samples.

Results

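Brown fat releases signalling proteins, often called batokines, that act on the fat itself, its nerves, the liver or the brain. The genes examined here encode 8 of them: Nrg4, Fgf21, Bmp8b, Gdf15, Metrnl, Slit2, Cxcl14 and Il6. They were measured in mouse brown adipocytes made to express Blnc1, a long noncoding RNA of brown fat, set against brown adipocytes that expressed the vector, with 2 arrays in each group. All probe sets were taken whose annotation named exactly 1 gene and that gene was among the 8. This gave 1 probe set for each of 6 genes, of 10926 genes so named on the array. Gdf15 and Il6 had no such probe set and were not analysed here.

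Both groups were of wild type genotype, and both were differentiated from preadipocytes for 6 days before RNA isolation. The array was an Affymetrix mouse array with perfect-match probes only, and the deposited values are log2 expression values, 1 per probe set and array. The sample titles call the replicates of each group biological. The sources used here do not say whether these replicates came from separate transductions, or whether the preadipocytes were primary cells or a line. For that reason the p-values are read as reflecting how far these particular arrays vary, and no more. In cultures of mixed cells, fewer cells that make a transcript and less transcript per cell cannot be told apart.

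Batokines work through different receptors. NRG4, an EGF-family ligand, signals through ErbB receptors and reaches the liver; FGF21 needs an FGF receptor together with its co-receptor beta-Klotho. BMP8B is a TGF-beta family ligand linked to the adrenergic response of brown fat, SLIT2 is a guidance protein read by ROBO receptors, CXCL14 is a chemokine that draws macrophages into brown fat, and meteorin-like, the product of Metrnl, acts on immune cells of fat. FGF21 and GDF15 are also hormones of the cellular stress response, and IL-6 signals through gp130 to STAT3.

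The labels were first checked. The brighter probe set annotated C730029A08Rik, a symbol listed with Blnc1 as synonyms of one gene in the RefSeq gene table, read 12.73 and 12.75 in the Blnc1 arrays, against 8.08 and 8.14 in the vector arrays. Its dimmer probe set read 6.35 and 6.24 in the Blnc1 arrays, against 6.82 and 6.40 in the vector arrays, and did not pass (limma adjusted p = 0.315). General adipocyte markers were high in both groups: all 6 measured lay above the array floor described below, and Fabp4 averaged 13.28 in both. Of 8 brown adipocyte markers 5 rose in Blnc1 cells. Among all 10926 genes, read on 1 probe set each, 134 passed in either direction. The mean level of the 8 markers was 8.56 and 8.62 in the Blnc1 arrays, against 7.31 and 7.27 in the vector arrays. The measured markers of macrophages (3 of 9 listed genes), endothelium (1 of 7), skeletal muscle (3 of 7) and Schwann cells or neurons (1 of 5) were below the floor. This held on both arrays of both groups, and none passed the test. Most listed markers of these cell types were not measured, so the absence of such cells was not shown. Of the 5 fibroblast markers measured, Dcn alone was above the floor in both groups, and Thy1 was above it in the vector group alone. All 5 had a negative difference (median -0.16) without passing. The 18 control probe sets for transcripts added at hybridization all read lower in Blnc1 arrays, by a median of -0.27 log2 units (Blnc1 minus vector). The signal at the 3′ end less that at the 5′ end, which reflects how intact the RNA was, came to 0.28 in Blnc1 and 0.41 in vector arrays for Gapdh and 1.34 in Blnc1 and 1.51 in vector arrays for Actb; its part in the results was not tested.

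The first question was whether the secreted factors were measurable above the array's background. The table holds no detection calls, so a floor was set on each array from 23 probe sets named after sensory receptors, keratin-associated proteins, defensins and gamma crystallins, genes that adipocytes are not known to use. Their 95th percentile was 5.997 and 5.92 in the Blnc1 arrays, against 5.61 and 5.75 in the vector arrays. A gene counted as above the floor in a group if both arrays of that group exceeded their floors. The floor rests on the second brightest of the 23, Krtap21-1, which averaged 6.05 in Blnc1 arrays and 5.72 in vector arrays, a difference short of the threshold (limma adjusted p = 0.162). Probe sets differ in how strongly they bind, so a position against the floor does not rank the transcripts by abundance.

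Nrg4 was above the floor, on all 4 arrays, and the other 5 factors were below it on all 4 arrays. Nrg4 was also brighter, in its mean over the 4 arrays, than all 23 floor probe sets. Fgf21 and Slit2 were each brighter than 20 of the 23, Bmp8b and Metrnl than 16, and Cxcl14 than 10. With the 90th percentile of the same genes as the floor 2 genes were above it, Nrg4 in both groups and Fgf21 in the vector group alone. With a floor at the 20th percentile of all probe sets on each array there were 4, namely Nrg4, Fgf21 and Slit2 in both groups and Bmp8b in the Blnc1 group alone. Among the brown adipocyte markers 1 gene passed the test from below the floor: Dio2, the deiodinase that activates thyroid hormone, read 4.77 and 4.96 in Blnc1 arrays and 3.91 and 3.73 in vector arrays, all below the floor (limma adjusted p = 0.0289). That call did not hold when any 1 array was left out (adjusted p from 0.0503 to 0.159) or without moderation (0.300).

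**Figure D1:**
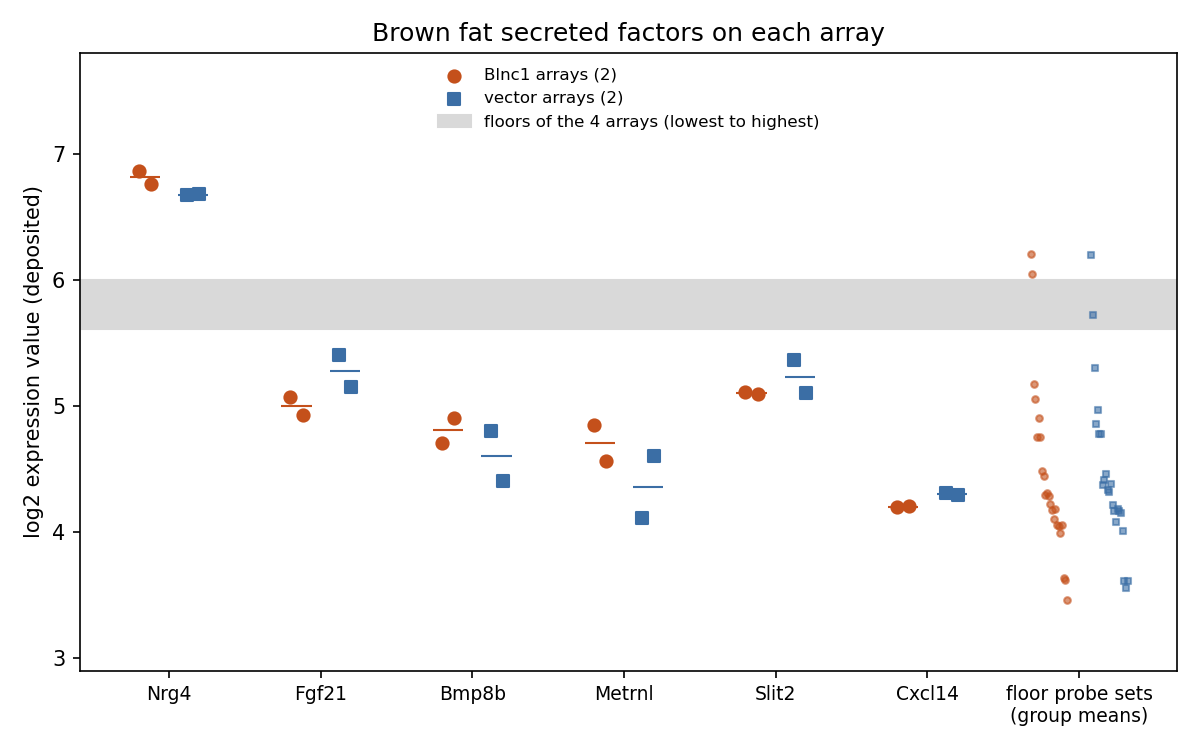
Deposited log2 value of each secreted factor on each array (circles, 2 Blnc1 arrays; squares, 2 vector arrays; short lines, group means), with the range of the 4 array floors as a grey band and the 23 floor probe sets as group means at the right. Nrg4 lies above the band at 6.67 to 6.86, and the other 5 genes lie below it.

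The second question was whether Blnc1 changed these transcripts. None of the 6 probe sets reached an adjusted p under 0.05 (limma with Benjamini-Hochberg adjustment over 23599 probe sets). Among all probe sets 219 did, a share of 0.928%, with 0.623% higher (147) and 0.305% lower (72) in Blnc1 cells. Centring every array on its median gave 176 higher calls and 135 lower ones. No unadjusted p of the 6 was under 0.05 either, against 18.9% of all probe sets. Differences between the group means, Blnc1 minus vector, ran from -0.28 for Fgf21 to 0.35 for Metrnl, 3 of them positive and 3 negative, with a median of 0.020 beside 0.0056 over all probe sets. The arrays of the 2 groups did not overlap for 3 of the 6 (Nrg4 higher, Fgf21 and Cxcl14 lower in Blnc1 cells), and the same held for 50.4% of all probe sets (26.4% higher and 24% lower in Blnc1 cells).

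Nrg4 (probe set 1421681_PM_at) read 6.86 and 6.76 in the Blnc1 arrays, against 6.67 and 6.68 in the vector arrays. Both Blnc1 arrays were higher than both vector arrays, but the Blnc1 arrays differed from each other by 0.10 log2 units. The difference was 0.14 ± 0.080 (SE), or 1.10-fold, with a 95% interval of 0.961-fold to 1.26-fold, and it did not pass (limma adjusted p = 0.411). A second probe set, annotated to both Nrg4 and Fbxo22 and so not counted among the 6, read 4.90 and 4.89 in Blnc1 arrays and 4.81 and 4.64 in vector arrays. It lay below the floor and did not pass either (log2 difference 0.17 ± 0.090 SE, limma adjusted p = 0.381).

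The genes whose pattern over the 4 arrays lay nearest to that of Nrg4 were Golga5, Nxt2 and Cbr1. Their root-mean-square distances, after each probe set's own mean was taken off, were 0.00395, 0.00429 and 0.00681 log2 units. Their differences between Blnc1 and vector cells were 0.14, 0.14 and 0.13, and with 4 arrays such nearness describes little more than a difference of the same small size.

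Fgf21 (1422916_PM_at), the hormone of fasting and stress that activated brown fat also makes, read 5.07 and 4.93 in Blnc1 arrays, against 5.405 and 5.15 in vector arrays. Both Blnc1 arrays were lower, and the 2 vector arrays differed from each other by 0.26, about as much as the groups. The difference was -0.28 ± 0.11 (SE), close in size to the shift of the spiked-in control probe sets (median -0.27), whose part in the result was not tested. The unadjusted p was 0.0502, a size that 18.9% of all probe sets went below, and the adjusted p was 0.265 (limma). The 95% interval ran from -0.55 to 0.00038 log2 units, for readings that were below the floor on all 4 arrays.

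Bmp8b (1440706_PM_at) read 4.71 and 4.91 in Blnc1 arrays, against 4.803 and 4.41 in vector arrays. The groups overlapped, and the vector arrays differed by 0.40, more than the group means did. The difference of 0.20 ± 0.15 (SE) did not pass (limma adjusted p = 0.516), and it was 0.40 without vector replicate 1 and 0.0063 without vector replicate 2.

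Metrnl (1424356_PM_a_at) had the largest difference of the 6 and also the widest spread. It read 4.85 and 4.56 in Blnc1 arrays, against 4.11 and 4.604 in vector arrays, so that the groups overlapped. The difference was 0.35 ± 0.18 (SE) and did not pass (limma adjusted p = 0.367), and its 95% interval of -0.095 to 0.79 log2 units leaves room for changes of either sign. Left out in turn, vector replicate 1 gave 0.10 and vector replicate 2 gave 0.59, while Blnc1 replicate 1 gave 0.20 and Blnc1 replicate 2 gave 0.49. With 2 arrays per group such omissions restate the spread between replicates and cannot single out 1 array.

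Slit2 (1424659_PM_at), whose protein is cut into fragments one of which was described as a thermogenic signal, read 5.11 and 5.10 in Blnc1 arrays, against 5.36 and 5.11 in vector arrays. The groups overlapped, since vector replicate 2 lay at the level of the Blnc1 arrays. The difference was -0.13 ± 0.11 (SE, limma adjusted p = 0.563), and it was -0.0015 without vector replicate 1 and -0.26 without vector replicate 2.

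Cxcl14 (1418456_PM_a_at) read 4.20 and 4.21 in Blnc1 arrays, against 4.31 and 4.29 in vector arrays. Both Blnc1 arrays were lower and replicates lay close together, but the difference of -0.10 ± 0.075 (SE) was small and did not pass (limma adjusted p = 0.531). Its probe set was among the dim ones, at the 10.7th percentile of all probe sets by mean level.

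**Figure D2:**
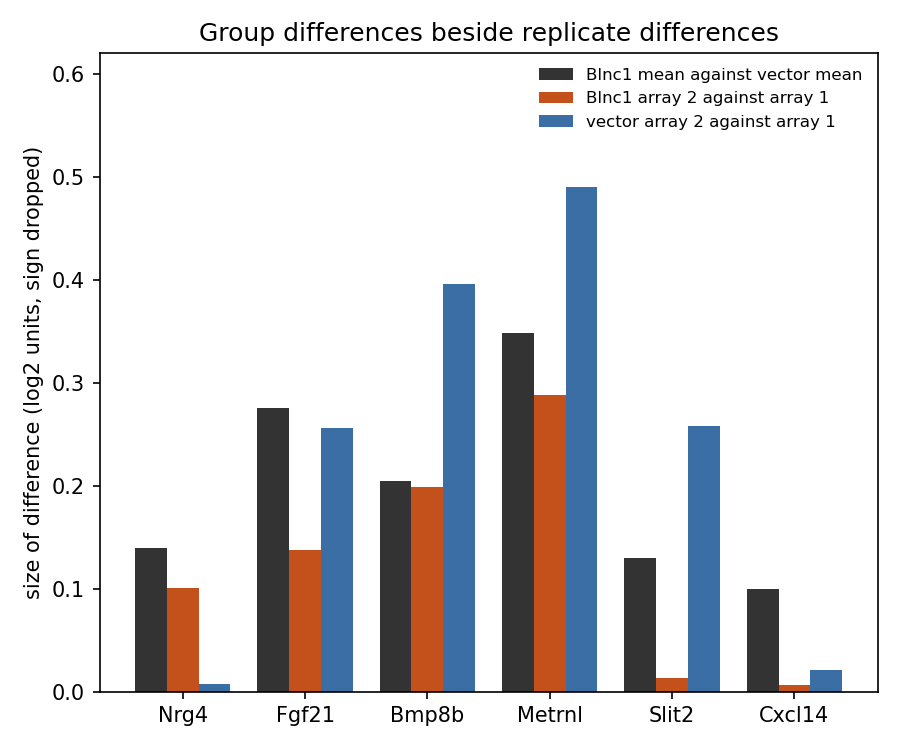
Size of the difference between group means (dark bars) beside the difference between the 2 Blnc1 arrays and between the 2 vector arrays, in log2 units with the sign dropped, for each secreted factor. For Bmp8b, Metrnl and Slit2 the vector arrays differ from each other by more than the group means do; for Nrg4, Fgf21 and Cxcl14 the group difference is the largest of the 3 bars.

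These values stand beside the brown adipocyte genes of the same arrays. Ucp1, the uncoupling protein of brown fat mitochondria, read 7.97 and 8.05 in Blnc1 arrays and 5.01 in both vector arrays, and it rose by 2.997 ± 0.078 log2 units (SE, limma adjusted p = 2.70e-04). In the vector arrays Ucp1 was itself below the floor. The lipid droplet gene Cidea rose by 3.12 ± 0.094 (SE). The other 3 brown markers, Prdm16, Elovl3 and Ebf2, stood at 0.22, 0.27 and 0.38 log2 units and did not pass, sizes that overlap those of the secreted factors. Dimmer probe sets stood at -0.0058 and -0.038 for Prdm16, below the floor on every array, and at 0.34 and 0.30 for Ebf2. None of these passed. Of the 8 brown markers Ucp1 and Cidea alone passed without Blnc1 replicate 1 or without Blnc1 replicate 2, and the difference between a secreted factor and a brown marker was not itself tested.

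**Figure D3:**
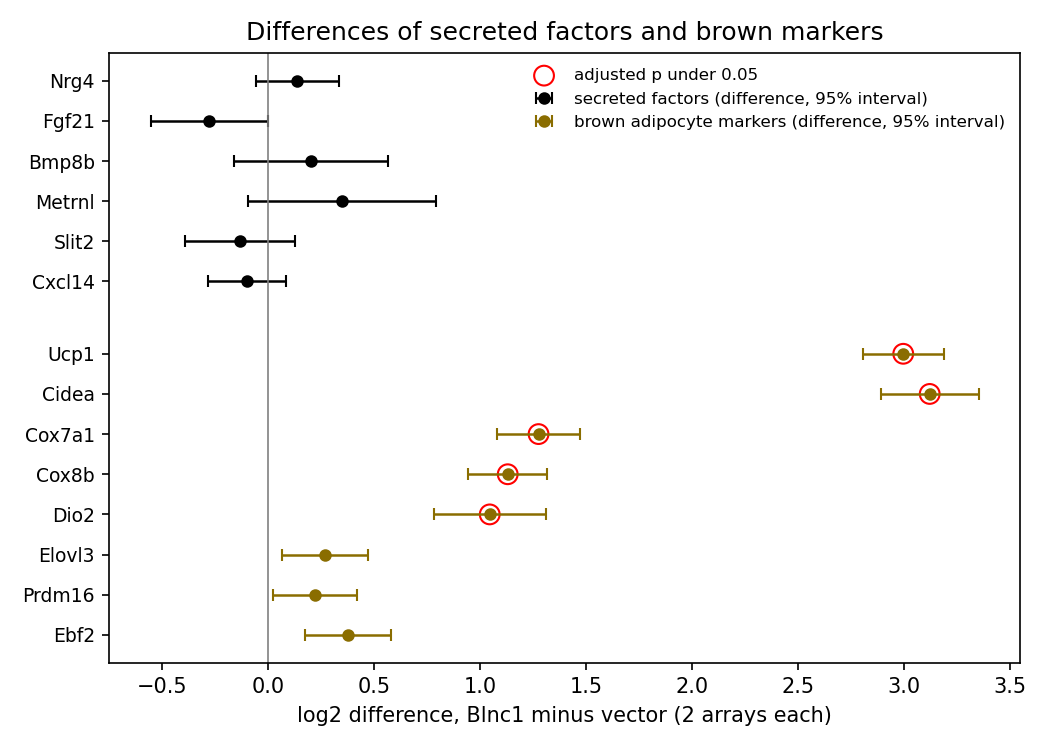
Log2 difference, Blnc1 minus vector (2 arrays each), with 95% intervals from the fitted model for the 6 secreted factors (black) and 8 brown adipocyte markers (brown); red rings mark an adjusted p under 0.05. The intervals of the secreted factors include 0; 5 brown markers lie between 1.05 and 3.12, and the other 3 lie between 0.22 and 0.38 without passing.

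Fgf21 transcription is known to answer to ATF4, the transcription factor of the integrated stress response, and in liver to PPARA. The window from 250 bases before to 50 after the annotated start of each of the 8 genes was therefore searched on both strands, in RefSeq sequence of build GRCm38.p6, where all 8 were found (Gdf15 with 2 starts). The motifs were an ATF4 composite element (TGATGNAA, N being any base), a full cAMP response element (TGACGTCA), a PPAR direct repeat with 1 spacer (AGGTCANAGGTCA), an EBF palindrome (TCCCNNGGGA) and a STAT palindrome (TTCNNNGAA). Fgf21 held the ATF4 element, at positions -139 to -132 from the start and on the other strand, and Cxcl14 held the STAT palindrome (TTCTGAGAA). Of all 32851 promoter windows tabulated, 3.97% held the ATF4 element and 8.30% the STAT palindrome, with 1.79%, 0.0396% and 0.904% for the cAMP, PPAR and EBF motifs. The other 6 genes held none of these letters in this window. Such a match is a description of the sequence and does not show binding.

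The 250 bases upstream of the start are shown for Nrg4, the factor above the floor (chr9:55283626-55283875, minus strand), and for Fgf21, the factor with the ATF4 element (chr7:45615491-45615740, minus strand). Both read 5′ to 3′ along the gene, and capitals mark the ATF4 element.
Nrg4: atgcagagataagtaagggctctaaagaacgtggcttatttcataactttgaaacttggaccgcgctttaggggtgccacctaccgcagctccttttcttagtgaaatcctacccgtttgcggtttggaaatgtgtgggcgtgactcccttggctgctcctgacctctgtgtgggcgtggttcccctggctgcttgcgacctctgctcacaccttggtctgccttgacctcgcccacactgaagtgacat
Fgf21: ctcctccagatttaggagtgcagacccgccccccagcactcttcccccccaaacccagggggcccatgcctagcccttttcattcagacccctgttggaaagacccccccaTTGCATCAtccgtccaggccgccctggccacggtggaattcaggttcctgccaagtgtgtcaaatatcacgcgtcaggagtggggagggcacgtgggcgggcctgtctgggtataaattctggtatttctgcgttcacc

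Genes of the ATF4 branch and PPAR genes were then read on the same arrays. None of 15 measured genes of the ATF4 branch passed the test, and they lay on both sides of 0 (9 positive, 6 negative, median 0.14, beside 0.0073 over all genes). Psat1 and Phgdh, enzymes of serine synthesis, stood at -0.47 ± 0.083 and -0.32 ± 0.076 (SE). Ddit3, the stress transcription factor CHOP, stood at 0.62 ± 0.13 (limma adjusted p = 0.088), and Atf4 itself at -0.023. Ddit3 also read higher in replicate 2 than in replicate 1, by 0.25 in both groups. The mean level of the 15 genes was 8.95 and 9.05 in the Blnc1 arrays (replicates 1 and 2), against 8.82 and 8.95 in the vector arrays. With probe sets below the floor left out, Ddit3, Psat1 and Phgdh passed. Of the secreted factors that filter kept Nrg4 alone, which did not pass. With a variance prior that follows the mean level 6 genes of the ATF4 branch passed. All 6 secreted factors were tested with that prior, and none passed.

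Of 10 measured PPAR genes 4 rose and none fell at the threshold, beside 134 of all 10926 genes that passed in either direction. The list was chosen with earlier results of these data known. Ppara, the receptor that drives fatty acid oxidation genes, read 8.14 and 8.09 in Blnc1 arrays and 7.48 and 7.29 in vector arrays, a rise of 0.73 ± 0.095 (SE) with a limma adjusted p of 0.0434. The 2 further probe sets of Ppara rose by 0.87 and 1.01. Cpt1b, which admits fatty acids to mitochondria, rose 2.58-fold, Pdk4, which restrains pyruvate dehydrogenase, 1.89-fold and Plin5, which ties lipid droplets to mitochondria, 1.70-fold. Cpt1a, the liver-type form of the enzyme that Cpt1b encodes in muscle and brown fat, had a negative difference: it read 4.80 and 4.89 in Blnc1 arrays and 5.39 and 5.38 in vector arrays, below the floor on all 4, a difference of -0.54 ± 0.079 (SE, limma adjusted p = 0.0526). Cpt1a passed as lower with arrays centred on their medians, with the dimmest probe sets (below the 20th percentile) left out, without probe sets ending in x_at and with the prior that follows the mean level. No PPAR gene passed without Blnc1 replicate 1 or without Blnc1 replicate 2, and Cpt1b alone passed without vector replicate 1 or without vector replicate 2.

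Among receptors and co-receptors of the 8 factors 13 of 23 genes were measured and none passed, with 4 positive and 9 negative and a median of -0.13. ErbB4, the chief receptor of NRG4, was not analysed here. Its partner Erbb3 read 4.28 and 4.38 in Blnc1 arrays and 3.73 and 4.10 in vector arrays, below the floor on all 4 (difference 0.42 ± 0.13 SE, limma adjusted p = 0.182).

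The FGF receptor and the co-receptor that FGF21 uses were both well above the floor. Fgfr1 read 7.86 and 7.90 in Blnc1 arrays, against 8.26 and 8.35 in vector arrays, a difference of -0.43 ± 0.079 (SE) that did not pass (limma adjusted p = 0.0775), while its dimmer probe set stood at -0.10. Fgfr1 passed, alone among the receptors, when probe sets with a mean below the floor were left out and with the prior that follows the mean level. Klb, which encodes beta-Klotho and was named after its values were seen, read 9.32 and 9.22 in Blnc1 arrays and 9.42 and 9.46 in vector arrays (difference -0.17 ± 0.081 SE, limma adjusted p = 0.335). Acvr1c, a type I receptor of the TGF-beta family that adipocytes express, stood at 0.24 ± 0.085 (SE, limma adjusted p = 0.214).

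Relatives of the factors also gave no call. Of 26 genes 8 were measured, 2 positive and 6 negative, with a median of -0.057. Cxcl12, a chemokine of stromal cells, read 8.45 and 8.43 in Blnc1 arrays and 8.87 and 8.91 in vector arrays, so the groups stood apart by -0.45 ± 0.076 (SE), short of the threshold (limma adjusted p = 0.0631); its dimmer probe set stood at -0.49 (limma adjusted p = 0.077). Cxcl12 passed in the same 2 alternatives as Fgfr1. Ctf1, cardiotrophin-1, a cytokine of the IL-6 family, stood at -0.26 ± 0.075 and the EGF-family ligand Hbegf at -0.072 ± 0.082 (SE).

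All 7 measured enzymes that cut or release secreted factors had a negative difference on their brightest probe set, with a median of -0.13, and none passed. Over all genes 51.6% were positive. Dimmer probe sets of Adam17 stood at 0.21 and -0.030, those of Bace1 at 0.068 and 0.046, and that of Adam10 at -0.21. Fap, a protease that inactivates human FGF21, stood at -0.38 ± 0.085 (SE, limma adjusted p = 0.101) at a level of 3.48 in Blnc1 and 3.86 in vector cells, below the floor. The proprotein convertases Furin and Pcsk6 stood at -0.20 ± 0.086 and -0.19 ± 0.11 (SE). Furin was above the floor in the vector group alone, but the floors differed between the groups. Its Blnc1 readings of 5.88 and 5.82 were above the vector floors (5.61 and 5.75) and below the higher Blnc1 floors. With the prior that follows the mean level Fap passed.

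Genes of the IL-6 and BMP pathways, a mix of pathway components and targets, did not pass either. Of 13 measured IL-6 and STAT3 pathway genes 10 were positive and 3 negative, with a median of 0.075. The kinase Pim1 stood at 0.55 ± 0.17, Cish at 0.27 ± 0.10 and Bcl3 at 0.21 ± 0.086 (SE). Pim1 and Bcl3 were below the floor on all 4 arrays, and the replicates of Pim1 differed by 0.44 in Blnc1 and 0.31 in vector cells. Socs3, the feedback inhibitor that IL-6 induces, was also below the floor, at 3.54 in Blnc1 and 3.47 in vector cells. Of 11 measured genes of BMP signalling and response 6 were positive and 5 negative, with a median of 0.053. Bambi, a decoy receptor, stood at -0.29 ± 0.079, the BMP antagonist Chrdl1 at -0.28 ± 0.11, and Id2, a target of BMP signalling, at 0.28 ± 0.093 (SE). Bambi was below the floor on all 4 arrays. With the prior that follows the mean level Id2 passed.

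Other secreted products that have been described from brown fat did include changed genes. Of 12 measured, 2 rose and none fell, beside 134 of all 10926 genes that passed in either direction. The median difference of the 12 was 0.069, and the list was chosen with earlier results of these data known. S100b, a calcium-binding protein released by brown adipocytes that promotes nerve growth, read 6.83 and 6.66 in Blnc1 arrays and 5.74 and 5.395 in vector arrays. It rose by 1.18 ± 0.13 log2 units (SE, limma adjusted p = 0.0348), with 1 of the 2 vector arrays below the floor. Its dimmer probe set lay below the floor on all 4 arrays and also passed (limma adjusted p = 0.012). Angptl4, an inhibitor of lipoprotein lipase and a known PPAR target, read 9.14 and 9.15 in Blnc1 arrays and 8.43 and 8.24 in vector arrays, a 1.75-fold rise (limma adjusted p = 0.0348). Rbp4, the retinol carrier, stood at 0.76 ± 0.15 (SE) and did not pass (limma adjusted p = 0.0848). No gene of this list passed without Blnc1 replicate 1, Blnc1 replicate 2 or vector replicate 2, and S100b alone passed without vector replicate 1.

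**Figure D4:**
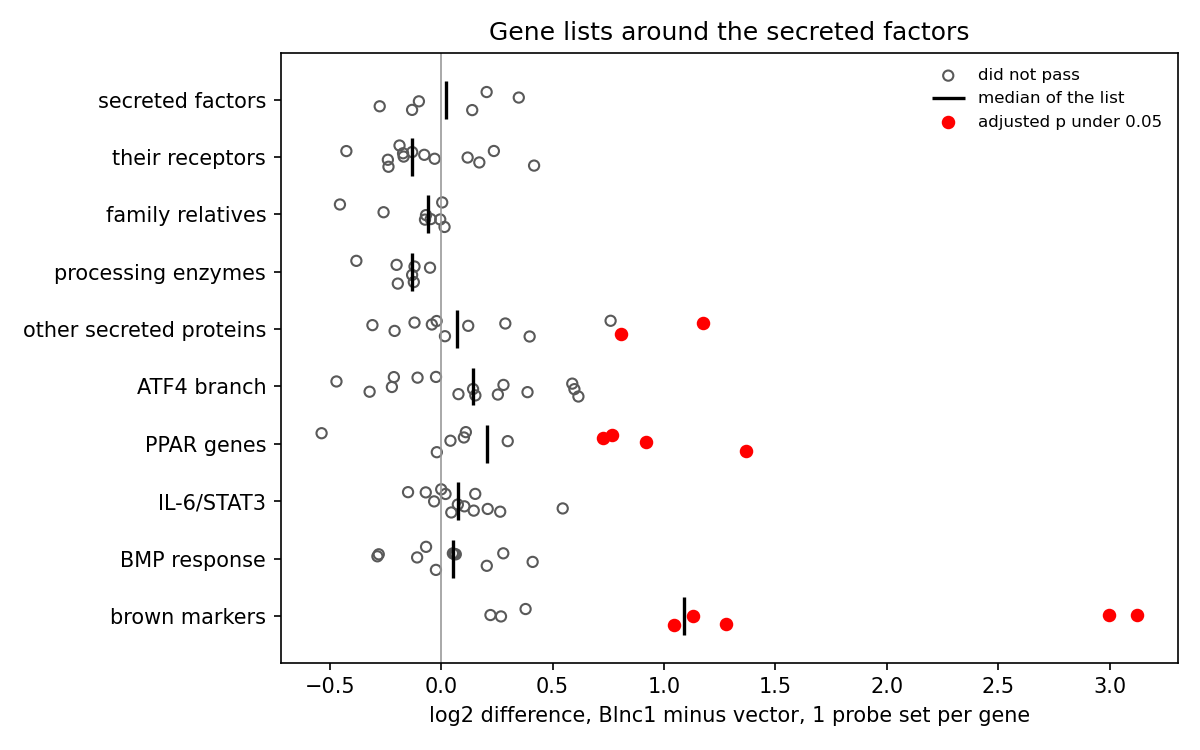
Log2 difference, Blnc1 minus vector, of each measured gene in 10 lists (1 probe set per gene; filled red, adjusted p under 0.05; black line, median of the list). The calls lie among the PPAR genes (4), the other secreted proteins (2) and the brown markers (5), and the secreted factors spread between -0.28 and 0.35.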

How the data were processed

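RNA of 4 samples was hybridised, after biotin labelling, to 1-colour arrays (per the labels' protocols). The deposited values are log2 expression values per probe set; the authors used RMA, affy and limma, of which the submitters' processing notes name no version or setting. The log2 scale was inferred from the values (array medians 5.98 to 6.04). RMA compresses differences of dim probe sets, and precision is limited by the number of arrays. Of 23634 probe sets 35 were controls and left out. Of the other 23599, GEO's platform annotation gave 1 gene symbol to 16692, several to 372 (left unnamed) and none to 6535.

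Blnc1 was compared with vector in limma (version 3.58.1, R 4.3.3) using lmFit and eBayes with no covariate, two-sided, with Benjamini-Hochberg adjustment over 23599 probe sets and a threshold of 0.05. The script was tested on simulated data. Genes of other lists were read on their brightest probe set by the mean over the 4 arrays. Named in each list were the members that passed and the 3 with the smallest p; of the factors above the floor, the 3 nearest patterns were named too. Atf4, Socs3, Klb, Fabp4, Dcn, Cpt1a and Adipoq were named after their values were seen. The 8 genes and all lists were chosen with earlier results of these data known. Alternatives were other priors, normalizations, filters and floors, a block for the replicate number, and the omission of single arrays.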

Additional observations from a re-analysis of the deposited data

How the results depend on the processing

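No secreted factor passed in any of the 15 alternatives in which their calls were counted, and none of the 6 changed sign in any alternative that kept its probe set. An unadjusted p under 0.05 was reached by 1 of the 6 in several alternatives that kept all 4 arrays. For Fgf21 the limma p was 0.036 with median centring, 0.046 with quantile normalization repeated and 0.021 with the replicate block. It was 0.0489 with probe sets below the 20th percentile left out and 0.0487 without probe sets ending in x_at. For Cxcl14 the p without moderation was 0.0125 (t-test). With probe sets below the floor left out Nrg4 alone remained to be tested. Without each array in turn the count of passing factors stayed at 0, the differences ran from 0.089 to 0.19 for Nrg4, -0.40 to -0.15 for Fgf21, 0.0063 to 0.40 for Bmp8b, 0.10 to 0.59 for Metrnl, -0.26 to -0.0015 for Slit2 and -0.11 to -0.089 for Cxcl14, and 1 factor stayed above the floor. The factors above the floor were 2 with the 90th percentile of the same genes and 4 with the 20th percentile of all probe sets. They were 1 with a single floor for all arrays (5.82), an alternative chosen after seeing the data. Over all probe sets the 219 calls became 958 at an adjusted p of 0.10, 913 with probe sets below the floor left out and 2174 with a prior that follows the mean level. They became 30 with the replicate block, 0 without moderation (where 3204 had an unadjusted p under 0.05) and 3 to 38 without each array in turn; the causes were not tested beyond the smaller number of arrays or probe sets. In the lists the prior that follows the mean level gave 6 ATF4 branch genes (3 higher, 3 lower), 5 other secreted proteins (4 higher, and Adipoq lower), 5 PPAR genes (4 higher, and Cpt1a lower), 7 brown markers (all higher) and 1 each of receptors, relatives and enzymes (lower) and of BMP genes (higher); without moderation no list had a call. Median centring gave 176 higher and 135 lower calls, against 147 and 72. The replicate numbers are shared by the groups, and the replicate differences of the 2 groups correlated by 0.089 over probe sets. A correlation over all probe sets cannot decide whether same-numbered samples were handled together. The mean level of the ATF4 branch list was higher in replicate 2 than in replicate 1 of both groups. That of the brown markers was higher in replicate 2 of the Blnc1 group alone. The replicate block left 0 secreted factors past the threshold, and it left 1 of the PPAR genes (4 without it), 0 of the other secreted proteins (2) and 4 of the brown markers (5). Dim signal limits the 5 factors below the floor: RMA compresses such readings, and changes of their transcripts can be larger than measured.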
